A study of Mus musculus with 6 samples.

Results

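The adhesion genes described here are Amigo2, Ptprf, Tspan9 and Actn1, 4 of the 19977 genes in the deposited table, and all 4 were found there by symbol. They were chosen by their summed level, which was lower in CD4+ T cells of old than of young mice in these same libraries, so that direction is a property of the choice and carries no test here. The cells came from the spleen and lymph nodes of C57BL/6 mice of wild type, were sorted by flow cytometry and spent 6 hours in culture with antibodies to CD3 and CD28. These antibodies engage the T-cell receptor complex and the costimulatory receptor CD28, and every library in both groups was stimulated in this way. Young mice were 6 to 8 weeks old and old mice 11 months old, with 3 libraries in each group. The titles code the young age as 1 month, and the protocol's wording is used. Whether the libraries are from different animals is not stated in the labels, so errors and p-values cover the spread between these libraries, which may be technical. Unstimulated cells were not analysed here, so a resting level cannot be told apart from a response to the antibodies.

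Cells attach to neighbours and matrix through surface receptors whose tails are tied to the actin cytoskeleton, and T cells use such contacts to home, to scan and to form a synapse with presenting cells. The members stand at different places in this chain. Amigo2 encodes a transmembrane adhesion protein with leucine-rich repeats and an immunoglobulin domain, first known from neurons. Ptprf encodes LAR, a receptor tyrosine phosphatase with immunoglobulin and fibronectin domains outside the cell. Tspan9 encodes a tetraspanin, a protein with 4 membrane spans that organises other receptors in the membrane and is known from platelets. Actn1 encodes alpha-actinin-1, which crosslinks actin filaments and ties them to integrin tails.

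In GRCm38 all 4 genes lie on the minus strand. Amigo2 (gene 105827) spans chr15:97244074-97247287, Ptprf (gene 19268) chr4:118208213-118291405, Tspan9 (gene 109246) chr6:127961396-128143578 and Actn1 (gene 109711) chr12:80167542-80260420. The bases just upstream of the outermost annotated end of each gene are shown because the members were lower in the same libraries and these stretches lie next to where transcription of each would begin. The motifs below are counted from the start that RefSeq's promoter table uses, which for Amigo2 and Tspan9 is that same end. For Ptprf and Actn1 it lies 8 and 57 bases further in, so the bases between are not shown. They come from RefSeq (GRCm38.p6), read 5′ to 3′ on the minus strand, and cover chr15:97247288-97247537, chr4:118291406-118291647, chr6:128143579-128143828 and chr12:80260421-80260613. Capitals mark GGGCGG, a motif of Sp and Klf factors, its reverse complement, or in Actn1 also GGAAGT, a motif of Ets factors.
Amigo2: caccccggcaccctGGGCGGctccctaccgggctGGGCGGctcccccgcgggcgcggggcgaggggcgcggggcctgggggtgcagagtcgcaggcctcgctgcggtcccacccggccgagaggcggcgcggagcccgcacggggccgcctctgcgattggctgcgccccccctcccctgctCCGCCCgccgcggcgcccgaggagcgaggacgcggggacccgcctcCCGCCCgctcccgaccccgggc
Ptprf: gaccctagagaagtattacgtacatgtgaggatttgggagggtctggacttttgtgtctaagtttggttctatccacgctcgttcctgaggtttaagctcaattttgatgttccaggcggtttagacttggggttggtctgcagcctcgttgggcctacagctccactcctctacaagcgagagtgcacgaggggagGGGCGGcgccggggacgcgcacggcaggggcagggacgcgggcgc
Tspan9: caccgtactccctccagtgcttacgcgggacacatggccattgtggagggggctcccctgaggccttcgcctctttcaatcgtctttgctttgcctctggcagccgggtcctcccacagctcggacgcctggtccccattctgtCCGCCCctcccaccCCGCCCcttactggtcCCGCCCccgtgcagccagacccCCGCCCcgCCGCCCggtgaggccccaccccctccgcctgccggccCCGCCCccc
Actn1: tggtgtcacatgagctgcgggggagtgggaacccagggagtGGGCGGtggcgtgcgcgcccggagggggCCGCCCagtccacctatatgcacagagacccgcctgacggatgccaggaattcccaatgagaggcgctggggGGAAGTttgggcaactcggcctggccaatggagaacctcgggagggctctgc

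All 4 promoters, each taken as 250 bases before to 50 bases after the start, held GGGCGG on one strand or the other, as did 35.7% of 32851 promoters of that length. Tspan9 held 6 matches there, Amigo2 5, Actn1 4 and Ptprf 3. Of these, 1 in Amigo2 lies past the start and is not shown, and those of Ptprf 8 and 4 bases and of Actn1 48 and 42 bases before the start lie in the bases not shown. Tspan9 has 3 further starts in the RefSeq table, of which the innermost also held the motif. GGAAGT was found in the Actn1 promoter, 109 bases before the start in that table, and in 23.8% of all promoters. The Amigo2 promoter had a GC content of 83.3%, against a median of 52.7% over all promoters, and 46 CG dinucleotides against a median of 7. Those of Ptprf, outermost Tspan9 and Actn1 had 64.0%, 73.3% and 68.3% GC. None of the outermost promoters held TATAAA, the TATA box, which was in 13.6% of all promoters, on either strand. The E-box form CACCTG (20.2% of all promoters), the E-box form CAGCTG (16.3%), the Runx motif TGTGGT (16.8%), the Tcf and Lef motif CTTTGAT (3.73%), the AP-1 motif TGACTCA with its reverse complement (5.2%) and the forkhead motif GTAAACA (3.65%) were likewise not found there. A match is a run of letters and was not tested as a binding site.

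The libraries held between 16932551 and 18708205 expected counts. Young replicate 1 stood apart, with correlations across genes of 0.924 and 0.911 with young replicates 2 and 3, against 0.977 between those (the points are genes, which are not replicates). T-cell markers were present in every library, with summed levels for 8 genes of 3216 to 3711 CPM in young and 3508 to 4265 CPM in old libraries. CPM are counts scaled to the library's total over the genes tested, after TMM adjustment. Results for the members are given with and without that library, as are those of many, but not all, of the other genes.

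Amigo2 transcripts, summed, stood at 14.8, 7.54 and 9.75 FPKM (fragments per kilobase of transcript, scaled to library size) in young replicates 1, 2 and 3. In old replicates 1, 2 and 3 they stood at 3.23, 2.80 and 2.81 FPKM. The groups did not overlap, and young replicate 1 was the highest library. In counts, the lowest old library held 152 (95% exact Poisson interval 128.8 to 178.2, counting error only) and the lowest young library 411 (372.2 to 452.7). The log2 difference from edgeR was -1.85 ± 0.27 (SE, n = 3 in both groups), 3.59-fold lower in old libraries, and -1.55 without young replicate 1.

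Ptprf stood at 1.81, 2.70 and 2.54 FPKM in the young libraries and at 0.77, 0.89 and 0.64 FPKM in the old ones, in replicate order. Here young replicate 1 was the lowest of the young libraries, and the groups again did not overlap. The lowest old library held 90 counts (95% exact Poisson interval 72.4 to 110.6). The log2 difference was -1.65 ± 0.25 (SE, n = 3 in both groups), or 3.14-fold lower, and -1.82 without young replicate 1. On log2(FPKM + 1) it was -0.92 in limma, where the added 1 is larger than every old value of this gene.

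Tspan9 stood at 2.80, 3.01 and 3.19 FPKM in the young libraries and at 0.73, 1.03 and 0.82 FPKM in the old ones. Its 3 young values lay closest together of the members, with a coefficient of variation of 10.4% in CPM against 33.7% for Amigo2, 21.4% for Ptprf and 81.6% for Actn1. The lowest old library held 52 counts (95% exact Poisson interval 38.8 to 68.2), the smallest count behind any member's value. The log2 difference was -1.85 ± 0.25 (SE, n = 3 in both groups), 3.62-fold lower, and -1.92 without young replicate 1, while limma on log2(FPKM + 1) gave -1.11.

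Actn1 was the most abundant member and the least even. It stood at 179, 54.8 and 39.6 FPKM in young replicates 1, 2 and 3 and at 32.0, 25.8 and 28.0 FPKM in the old libraries. Young replicate 1 held 3.66 times the mean CPM of the other young libraries, which in turn held 1.70 times the old mean. The log2 difference was -1.68 ± 0.52 (SE, n = 3 in both groups) and became -0.76 ± 0.14 without young replicate 1. The groups did not overlap with or without that library.

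**Figure D1:**
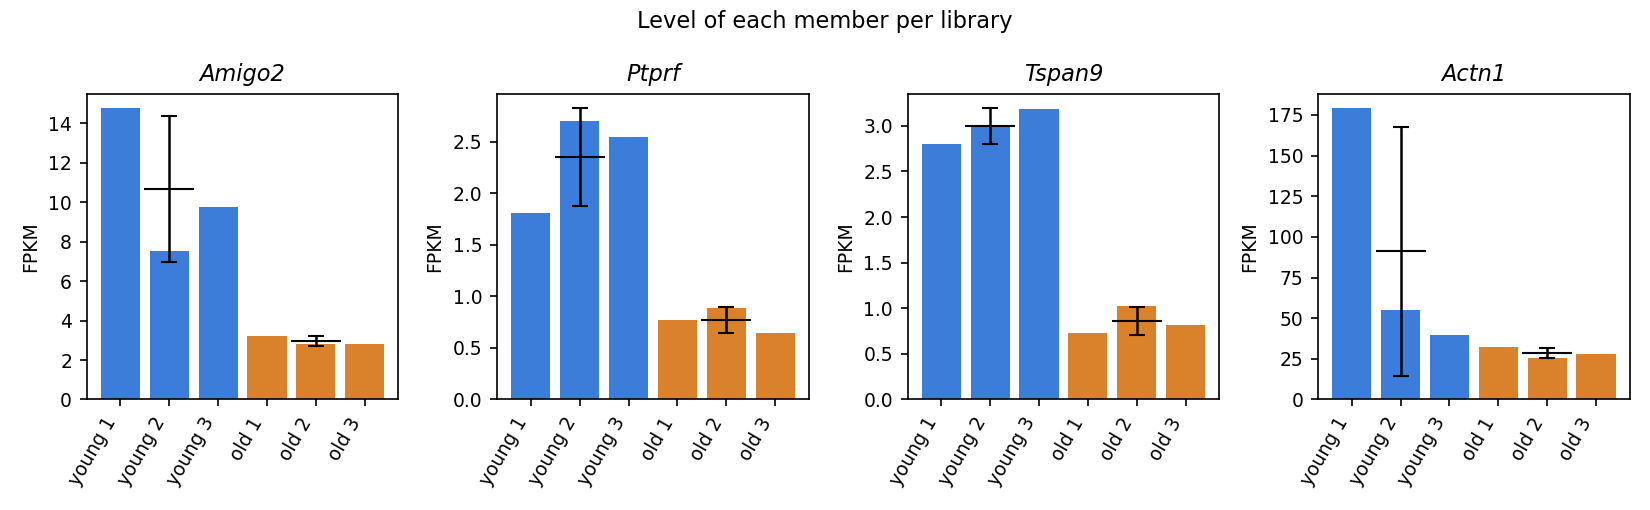
Summed FPKM of each member per library (bars, each panel with its own axis from 0; blue young, orange old); black lines centred on each group give its mean ± SD (n = 3). The old bars are below all young bars in each panel, and young replicate 1 is the tallest bar for Amigo2 (14.8) and Actn1 (179) but the shortest young bar for Ptprf (1.81) and Tspan9 (2.80).

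In FPKM, which is scaled by transcript length, Actn1 was the highest member in all 6 libraries and Amigo2 the second. Group means were 91.2 ± 76.6 and 28.6 ± 3.15 FPKM for Actn1 in young and old libraries, and 10.7 ± 3.70 and 2.95 ± 0.25 FPKM for Amigo2 (SD, n = 3 each). Tspan9, at 3.0 ± 0.20 and 0.86 ± 0.15 FPKM, and Ptprf, at 2.35 ± 0.47 and 0.77 ± 0.13 FPKM, were the lowest (SD, n = 3 each). Tspan9 lay above Ptprf in 5 libraries and below it in old replicate 1, and in the old group their ranges overlapped.

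Over the 9 pairs of an old with a young library, the log2 ratio of CPM ran from -2.39 to -1.20 for Amigo2, from -2.04 to -1.02 for Ptprf, from -2.28 to -1.43 for Tspan9 and from -2.74 to -0.43 for Actn1. Of all 10509 genes tested, 687 (6.54%) were lower in old libraries with groups that did not overlap, and 14 were called lower (0.133%) and 78 higher (0.742%), together 0.875%. Called means a Benjamini-Hochberg adjusted p under 0.05 in edgeR's quasi-likelihood fit over all genes tested. Amigo2, Ptprf and Tspan9 are among those 14 and Actn1 is not. Genes were tested if their FPKM averaged 1 or more over all libraries, which Ptprf and Tspan9 reached through the young group. Their old means were 0.77 and 0.86 FPKM. All 4 are among the 929 genes (8.84%) called without young replicate 1, 2.98% of genes being called lower there, and among the 501 (4.77%) called in DESeq2. In the fits without young replicate 2, young replicate 3, old replicate 1, old replicate 2 or old replicate 3, which called 0%, 0.0666%, 0.0571%, 0% and 0.0856% of genes, none of the 4 was called. Limma on log2(FPKM + 1) (0.942% called) did not call Ptprf or Actn1, and edgeR with a replicate block (1.13% called) did not call Actn1. Since this contrast chose the members, nothing is read from these counts. By log2 difference, counted from the most negative, they were number 47, 59, 44 and 56 of the genes tested.

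**Figure D2:**
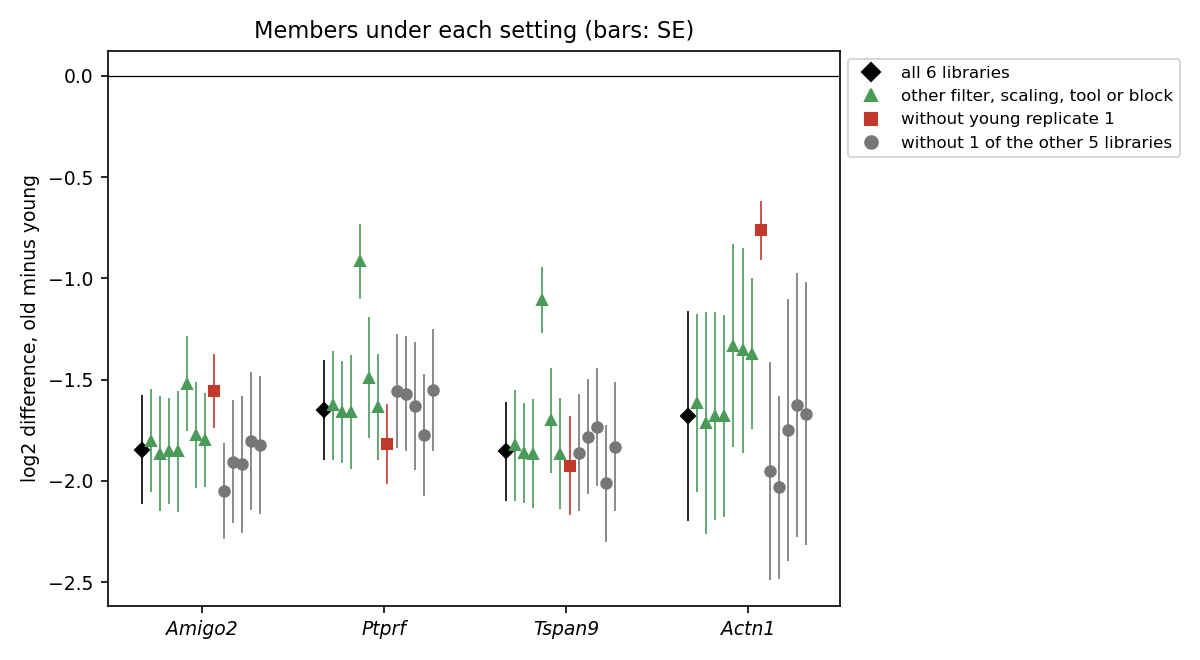
Log2 difference, old minus young, of each member (y axis) with all libraries (black diamond), under other filters, scalings, tools and the replicate block (green triangles) and without each library (red square without young replicate 1, grey circles the others); bars are SE. Amigo2, Ptprf and Tspan9 stay between -2.05 and -0.92, and Actn1 moves from -1.68 to -0.76 without young replicate 1.

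How a gene divides its reads among its transcripts was not used to choose the members. RSEM divides reads that fit several transcripts by a model, so a share close to 0 in some libraries and large in others can be an uncertain estimate. Amigo2 had 3 transcripts in the table, and NM_001164602 held 58.6%, 82.3% and 93.9% of its counts in young and 38.9%, 70.6% and 78.0% in old libraries. That transcript alone stood at 9.01, 6.33 and 9.22 FPKM in young and at 1.32, 2.05 and 2.25 FPKM in old libraries, again without overlap. NM_178114 overlapped between groups, and NM_001164563 was above 0 in young replicate 1 and old replicate 1 only.

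Ptprf had counts on 6 of 7 transcripts, and its division varied most. NM_011213 held 76.3%, 2.81% and 49.0% of its counts in young libraries and 17.5%, 62.0% and 27.9% in old ones, while XM_006502872 held 4.4%, 93.6% and 29.2% in young and 36.0%, 19.7% and 72.1% in old libraries. Each of these transcripts led in libraries of both ages, so the lower level of Ptprf was seen in the gene's sum and in no single transcript, since the FPKM ranges of all overlapped between groups. XM_006502876 held 39.8% of the counts in old replicate 1 and was at 0 in the other libraries.

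For Tspan9, XM_006505335 held 66.5%, 67.1% and 58.3% of the counts in young libraries and 92.3%, 34.2% and 89.5% in old ones. XM_006505330 held 29.8%, 32.4% and 39.6% in young libraries and 0%, 20.8% and 4.65% in old ones, and was the only transcript of any member whose shares did not overlap between groups. Both transcripts were lower in FPKM in every old library than in any young one. In old replicate 2 a further transcript, XM_006505332, took 42.9% of the counts and was at 0 elsewhere. For Actn1, NM_134156 held 56.2% to 66.9% of the counts in young and 48.5% to 85.6% in old libraries. Its FPKM was 114, 30.8 and 21.4 in young and 19.5, 21.5 and 12.5 in old libraries, so that this main transcript overlapped between the groups. XM_006515385, the second by mean share in young libraries, stood at 29.5, 8.73 and 14.5 FPKM in young and 2.09, 1.0 and 6.80 FPKM in old libraries, without overlap.

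The transcript shares were compared in edgeR's diffSpliceDGE, with a Simes p per gene and Benjamini-Hochberg adjustment over 7336 genes, of which 1 (0.0136%, Rlim, seen after the test) passed. No member passed, with an adjusted p of 1 for each and unadjusted p of 0.254 for Actn1, 0.740 for Amigo2, 0.769 for Tspan9 and 0.972 for Ptprf in that model. For XM_006505330 of Tspan9 the log2 change relative to the gene was -1.01 (unadjusted p = 0.445 in edgeR's diffSpliceDGE). That no member passed does not show that the division was alike, and the smallest change that could have been called was not measured.

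**Figure D3:**
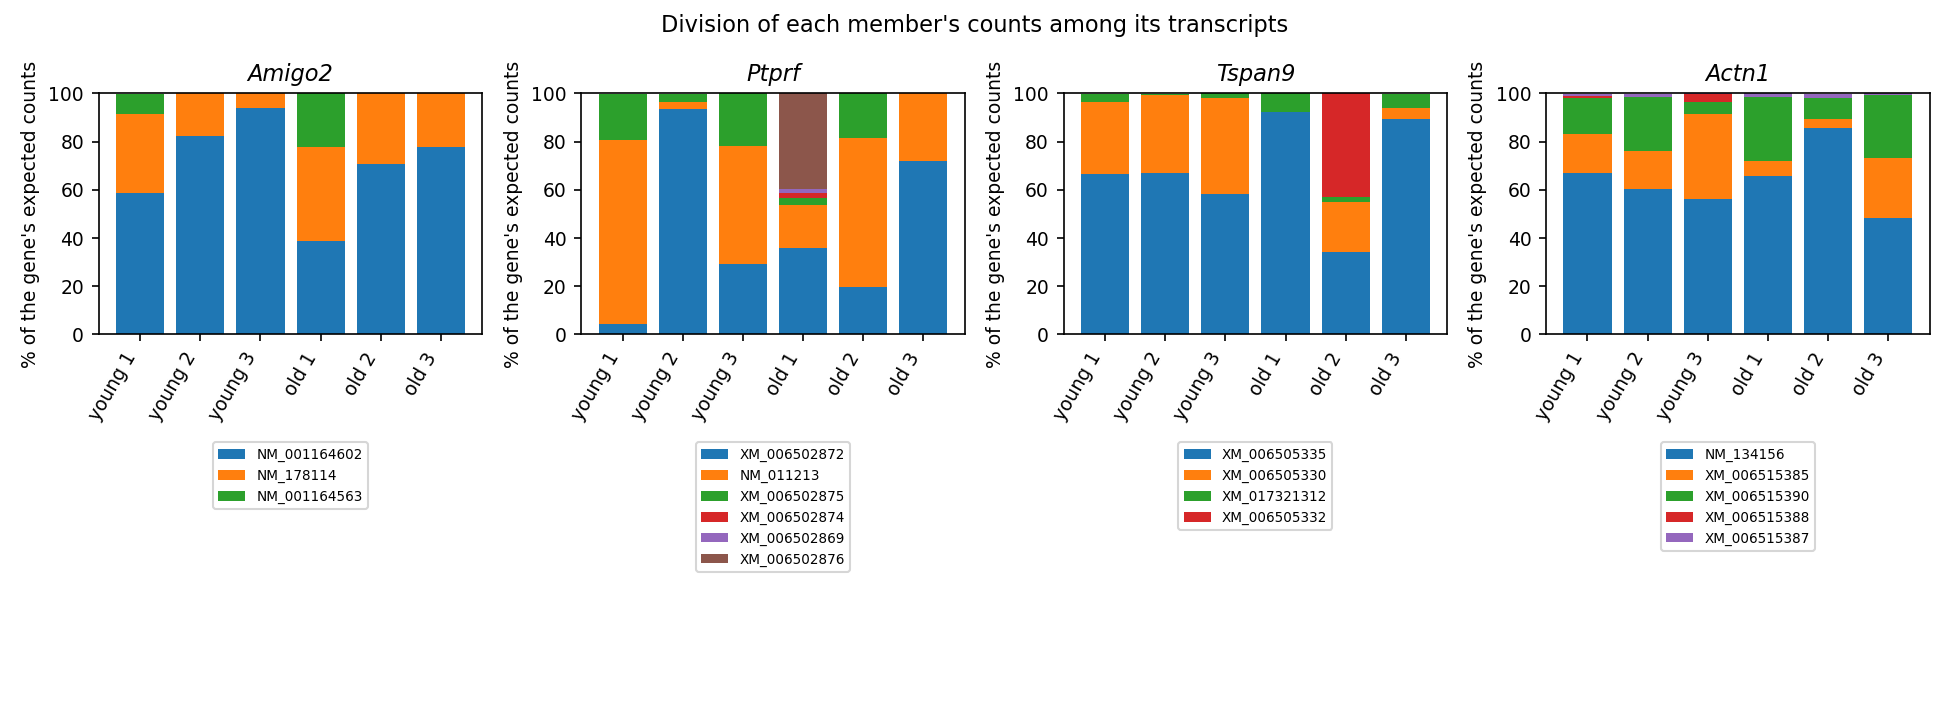
Share of each member's expected counts on each transcript (stacked bars, percent of the gene's counts, 1 bar per library; transcripts at 0 in all libraries left out). In Ptprf the largest share passes between transcripts from library to library, as NM_011213 at 76.3% in young replicate 1 and 2.81% in young replicate 2 shows, while NM_134156 holds 48.5% or more of Actn1 in every library.

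Reads of neighbouring or antisense genes could enter these sums, since the strand setting of the counting is not given in the sources used here. In GENCODE M21, Amigo2 shares 58 exon bases, 1.83% of its exon sequence, with Pced1b on the opposite strand. Pced1b stood at 343, 182 and 171 CPM in young and at 143, 125 and 138 CPM in old libraries, far above the 42.9, 22.1 and 29.3 CPM of Amigo2 in young libraries. It was not called (log2 difference -0.78 ± 0.28, SE, n = 3 in both groups). Actn1 shares 363 and 88 exon bases with the antisense RNAs Gm47766 and Gm47767. No exon bases of Ptprf or Tspan9 are shared with another gene there. The part that shared bases play in these values was not tested.

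The closest relatives of the members differed in what they showed. Amigo1 stood at 1.55 ± 0.13 FPKM in young and 1.40 ± 0.23 in old libraries, and Amigo3 at 4.09 ± 1.37 and 3.65 ± 0.36 FPKM (SD, n = 3 each). Neither was called, with log2 differences of 0.02 ± 0.22 and -0.17 ± 0.28 (SE). Ptprs, the LAR relative that also binds heparan sulfate, was more abundant than Ptprf at 17.5 ± 2.92 and 18.8 ± 7.01 FPKM (SD, n = 3 each) and was not called (log2 difference 0.12 ± 0.30, SE). Ptprd, the other LAR relative, was below the filter with at most 0.11 FPKM in any library. Tspan4, at 2.41 ± 1.13 and 1.47 ± 0.59 FPKM (SD, n = 3 each), had a log2 difference of -0.66 ± 0.50 (SE) and overlapping groups.

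Among the alpha-actinins, Actn4, the other nonmuscle form, stood at 74.7 ± 11.0 FPKM in young and 82.7 ± 6.11 FPKM in old libraries (SD, n = 3 each). In young replicates 2 and 3 and in every old library it was the more abundant of both nonmuscle forms, and in young replicate 1 Actn1 was. Its log2 difference was 0.14 ± 0.17 (SE) and it was not called. Actn2, the muscle form, was low in all libraries, at 1.68, 2.13 and 2.59 FPKM in young and 0.83, 0.54 and 0.47 FPKM in old ones. Its groups did not overlap, with a log2 difference of -1.53 ± 0.32 (SE, n = 3 in both groups), but it was not called (edgeR, adjusted p = 0.0924). Without young replicate 1 it was called lower (log2 difference -1.66, edgeR, adjusted p = 0.0198), and DESeq2 called it with all libraries. Actn2 passed the filter of a mean FPKM of 1 through the young group, as its old mean was 0.61 FPKM, which limits these calls. Actn3 held at most 6 counts in any library. Reads that related actinin transcripts share were not examined.

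**Figure D4:**
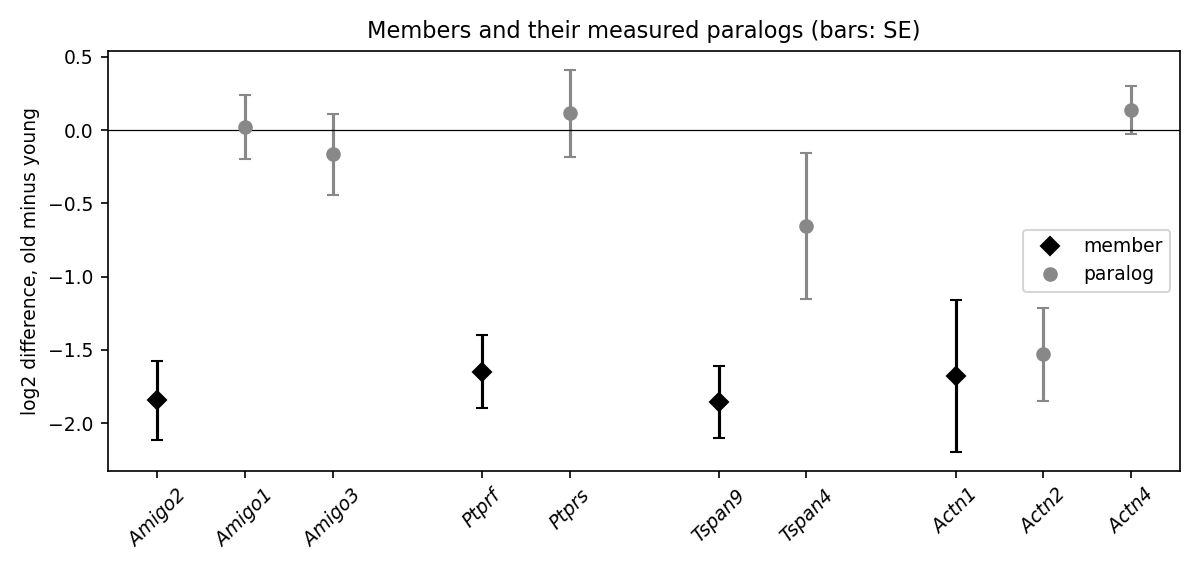
Log2 difference, old minus young (y axis, edgeR, bars SE, n = 3 in both groups), of the members (black diamonds) and those of their closest relatives that passed the filter (grey circles). Amigo1, Amigo3, Ptprs and Actn4 lie between -0.17 and 0.14, Tspan4 is at -0.66 and Actn2 is at -1.53.

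Other genes of cell adhesion were read from 10 lists written from general knowledge, but with earlier results of these data known, which limits their comparison with all genes. Together the lists hold 211 genes beside the members. Of these, 101 passed the filter, 60 with a positive and 41 with a negative log2 difference, and their median was 0.07 against -0.03 (-0.035) over all genes tested. Itgb3, the integrin beta-3 chain, fell, and 0 rose in edgeR (32 with unadjusted p under 0.05; 17 calls in DESeq2). Of all 10509 genes tested, 1119 had an unadjusted p under 0.05 in edgeR, and DESeq2 called 501 (4.77%). The same background applies to the lists and markers below. In 10 of the 101 genes (9.90%) all old libraries lay below all young ones, against 6.54% of all genes tested, and in 29 (28.7%) above them, against 9.90%. Without young replicate 1, edgeR called 5 lower and 18 higher, where 2.98% and 5.86% of all genes were called, and the median was 0.29.

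Inside the cell, liprins anchor LAR at adhesion sites and Trio is a guanine exchange factor that binds its tail. Of 4 measured genes of this list, 0 were called in edgeR or DESeq2 (0 with unadjusted p under 0.05), with a median log2 difference of -0.02. Ppfia1, the main liprin here, stood at 19.04 FPKM in young and 20.0 in old libraries, Ctnnb1, beta-catenin, at 78.2 and 72.9 FPKM, and Trio at 3.16 and 2.92 FPKM. Heparan sulfate proteoglycans, which bind LAR from outside, had 4 measured genes and 0 called in edgeR (2 with unadjusted p under 0.05; 1 call in DESeq2). Gpc1, a glypican and the most abundant of them, stood at 4.37 and 6.07 FPKM in young and old libraries, and the syndecan Sdc3 at 3.19 and 2.37 FPKM. Sdc4, a syndecan, had a log2 difference of 1.08 ± 0.28 (SE, n = 3 in both groups), with all old libraries above all young ones, and edgeR called it higher without young replicate 1.

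Of 6 other measured receptor phosphatases, 0 were called in edgeR (2 with unadjusted p under 0.05; 1 call in DESeq2) and their median log2 difference was 0.19. Ptprc, which encodes CD45 and sets the threshold of receptor signalling, stood at 313 and 304 FPKM in young and old libraries, and Ptpra, which activates Src-family kinases, at 24.2 and 19.8 FPKM. Ptprj, a phosphatase of receptor-proximal kinases, stood at 2.07, 1.52 and 1.04 FPKM in young and 4.44, 5.26 and 3.18 FPKM in old libraries. Its log2 difference of 1.46 ± 0.29 (SE, n = 3 in both groups) was not called (edgeR, adjusted p = 0.0842), and without young replicate 1 it was called higher (edgeR, adjusted p = 0.00899). Its sign was opposite to that of Ptprf.

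Of 16 other measured tetraspanins, 8 had a positive and 8 a negative log2 difference, and 0 were called in edgeR (3 with unadjusted p under 0.05; 1 call in DESeq2). Cd53, a leukocyte tetraspanin and the most abundant, stood at 454 and 671 FPKM in young and old libraries, and Cd37, another of leukocytes, at 85.0 and 84.1 FPKM. Cd82, a tetraspanin of activated T cells, stood at 159, 176 and 122 FPKM in young and at 295, 272 and 337 FPKM in old libraries. Its log2 difference was 0.99 ± 0.19 (SE, n = 3 in both groups), without a call (edgeR, adjusted p = 0.0824) but with a higher call without young replicate 1 (edgeR, adjusted p = 0.0169). Tspan3 and Cd81 were called lower without that library only, with log2 differences of -0.73 and -0.54. Tspan13 was called higher without that library only, with a log2 difference of 0.74.

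Alpha-actinin partners gave no call among 24 measured genes of the focal adhesion scaffold in edgeR (8 with unadjusted p under 0.05; 3 calls in DESeq2), with a median log2 difference of 0.05. Evl, which lengthens actin filaments, was the most abundant by its mean over all libraries and stood at 306, 186 and 218 FPKM in young and 133, 96.5 and 99.0 FPKM in old libraries. Its log2 difference of -1.11 ± 0.23 (SE, n = 3 in both groups) was not called (edgeR, adjusted p = 0.0912), and without young replicate 1 it was called lower (edgeR, adjusted p = 0.0163). Vasp, of the same family, stood at 131 and 170 FPKM in young and old libraries, above Evl in each old library, with a log2 difference of 0.37 ± 0.14 (SE, n = 3 in both groups). Zyx, an alpha-actinin binding protein, stood at 66.9 and 72.8 FPKM. In 3 of the 24 genes all old libraries lay below all young ones (6.54% of all genes tested), and in 5 above them (9.90%). Pdlim4, among those 3, had a log2 difference of -1.88 ± 0.54 (SE, n = 3 in both groups) and was called in DESeq2. Without young replicate 1 edgeR called 1 of the 24 lower and 2 higher, where 2.98% and 5.86% of all genes were called. Of 11 other measured actin crosslinkers, 0 were called in edgeR (3 with unadjusted p under 0.05; 1 call in DESeq2), with a median of 0.04. Lcp1, the leukocyte plastin, stood at 435 and 550 FPKM, and Flna, filamin A, at 51.4 and 52.7 FPKM.

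Among 12 measured integrin genes, 1 was called lower and 0 higher in edgeR (7 with unadjusted p under 0.05; 6 calls in DESeq2), and the median log2 difference was 0.21. Itgb3, the partner of the alpha-v chain, stood at 17.7, 9.76 and 11.7 FPKM in young and 5.13, 5.39 and 4.15 FPKM in old libraries. Young replicate 1 was again the highest, and the groups did not overlap. It fell, at a log2 value of -1.42 ± 0.24 old over young (SE, n = 3 in both groups; edgeR, adjusted p = 0.04999), just inside the threshold, and limma did not call it (adjusted p = 0.0666). Of the 6 fits that leave out a library, the one without young replicate 1 called it (edgeR, adjusted p = 0.00704) and the others did not (edgeR, adjusted p up to 0.226). Itgav, the alpha-v chain itself, had the opposite sign, with a log2 difference of 0.93 ± 0.20 (SE, n = 3 in both groups). All its old libraries lay above all young ones. It was not called (edgeR, adjusted p = 0.0931), but DESeq2 called it, as did edgeR without young replicate 1. Itgb1, the beta-1 chain whose tail binds alpha-actinin, stood at 25.0 FPKM in young and 50.5 in old libraries, with a log2 difference of 1.0 ± 0.20 (SE, n = 3 in both groups) and no call (edgeR, adjusted p = 0.0828), but with a higher call without young replicate 1. Itgal and Itgb2, the chains of LFA-1, stood at 105 and 138 and at 85.8 and 113 FPKM in young and old libraries, without calls. Itgb7, of the gut homing integrin, had a log2 difference of -0.99 ± 0.67 (SE, n = 3 in both groups) with all libraries and 0.23 without young replicate 1, so its sign rested on that library.

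Immunoglobulin-family adhesion genes had the highest median of the lists, at 0.33 over 16 measured genes, with 0 called in edgeR (6 with unadjusted p under 0.05; 3 calls in DESeq2). In 8 of the 16 all old libraries lay above all young ones (9.90% of all genes tested), Cd2, Cd6 and Cd48 among them, and in 0 below (6.54%). Without young replicate 1 edgeR called 4 of the 16 higher and 0 lower, where 5.86% and 2.98% of all genes were called. Cadherins and catenins had a median of 0.01 over 5 measured genes, with 0 called in edgeR (1 with unadjusted p under 0.05, Pkp3, which was also the 1 call in DESeq2). Ctnna1, alpha-catenin, stood at 9.36 and 12.9 FPKM in young and old libraries. The leucine-rich repeat list of Amigo2 had a median of 0.17 over 4 other measured genes, with 0 called in edgeR or DESeq2 (0 with unadjusted p under 0.05). Lrig1 was its most abundant gene, at 16.5 and 24.7 FPKM in young and old libraries. Without young replicate 1 edgeR called Lrig1 higher (log2 difference 0.92, edgeR, adjusted p = 0.0399).

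**Figure D5:**
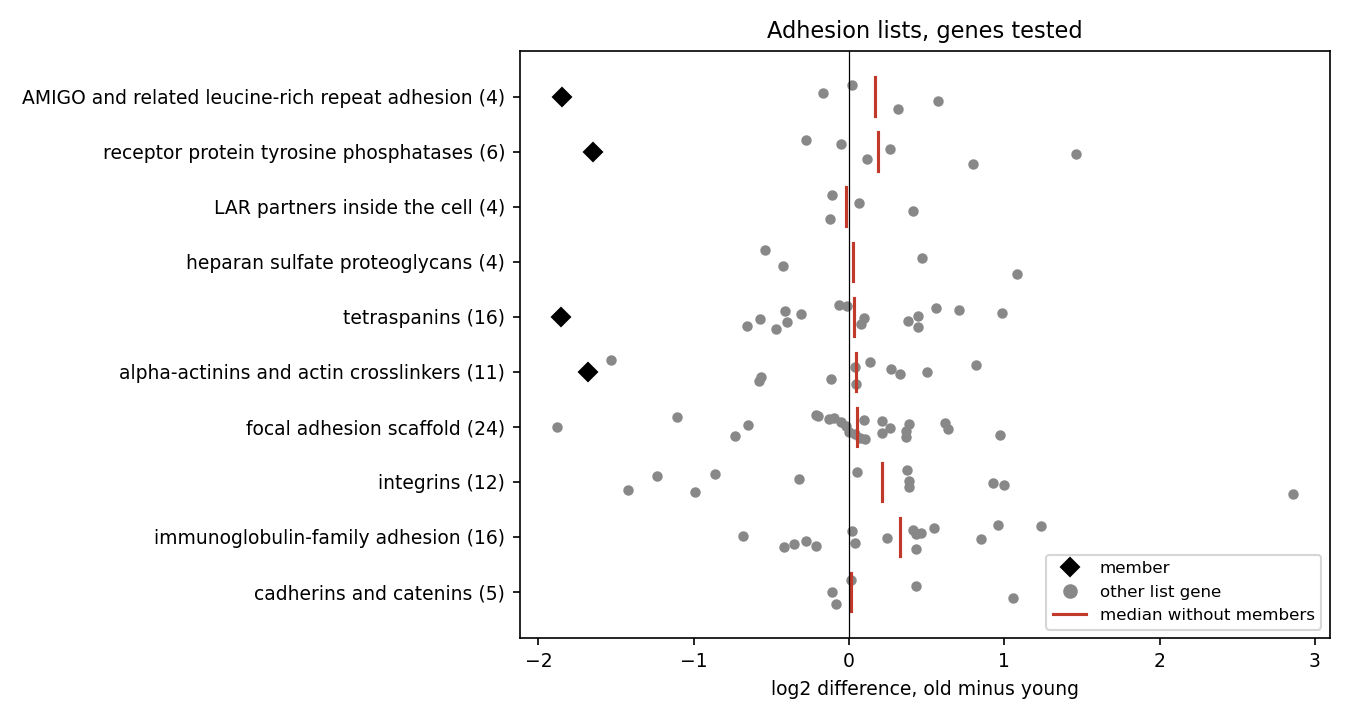
Log2 difference, old minus young (x axis, edgeR), of each tested gene in the 10 adhesion lists (grey circles; the number of tested genes without members in brackets), the members (black diamonds) and the median without them (red line). The medians lie between -0.02 and 0.33, and the members lie between -1.85 and -1.65.

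The members' profiles across the 6 libraries were compared by Pearson r of log2 CPM, given as a description, since groups that do not overlap raise r by themselves. Ptprf and Tspan9 were most alike (r = 0.979), then Amigo2 and Tspan9 (0.910), Amigo2 and Actn1 (0.868) and Amigo2 and Ptprf (0.853). Actn1 had r of 0.651 with Tspan9 and 0.550 with Ptprf. Among all tested genes, those closest to Actn1 were Dapl1 (r = 0.999), Asb8 (0.998) and Pced1b (0.996), the gene that overlaps Amigo2. Dapl1, a gene of naive T cells, stood at 19.2, 2.90 and 1.79 CPM in young and at 1.2, 0.92 and 0.87 CPM in old libraries, so it too was far higher in young replicate 1 than elsewhere. Closest to Amigo2 were Suox (r = 0.999), Shf (0.996) and Tsc22d1 (0.995). Closest to Ptprf were Mrnip (0.996), Adarb1 (0.993) and Cdc20 (0.990), and closest to Tspan9 were Klhdc10 (0.993), Wnt10b (0.993) and Hbs1l (0.992).

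Markers of cell state were read beside the members. In bulk RNA, fewer cells of a type and less RNA of a gene per cell cannot be told apart. The 12 naive-cell markers summed to 4686 to 9499 CPM in young and 3430 to 3803 CPM in old libraries, with the highest sum in young replicate 1. Of these markers, 6 were lower in all old than in all young libraries, against 6.54% of all genes tested. None of the 12 was called in edgeR (6 with unadjusted p under 0.05; 3 calls in DESeq2), and their median log2 difference was -1.11, or -0.35 without young replicate 1. Without that library edgeR called 2 lower and 1 higher, where 2.98% and 5.86% of all genes were called. The 1 called higher was Il7r, the interleukin-7 receptor chain, at 684, 41.1 and 27.6 CPM in young and 114, 91.8 and 72.6 CPM in old libraries. Ccr7, a chemokine receptor of lymph node entry, had values of 899, 1419 and 1271 CPM in young and 576, 526 and 621 CPM in old libraries, with its lowest young value in replicate 1, as for Ptprf and Tspan9. The 12 effector and memory markers summed to 554 to 717 CPM in young and 1413 to 1444 CPM in old libraries. All old libraries lay above all young ones in 8 of the 12, against 9.90% of all genes tested. In edgeR 8 had an unadjusted p under 0.05 (1119 of all 10509 genes tested), and DESeq2 called 6 (4.77% of all genes). Their median log2 difference was 1.105. Without young replicate 1 edgeR called 9 of the 12 higher (5.86% of all genes) and the median was 1.22. With all libraries edgeR called 1 of the 12: Cd44, the adhesion receptor for hyaluronan, rose, at a log2 value of 1.40 ± 0.21 old over young (SE, n = 3 in both groups, edgeR, adjusted p = 0.0368). That call held in 1 of the 6 fits without a library, the one without young replicate 1. The part of the naive and memory balance in the members' levels was not tested.

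Markers of other cells were present at levels that in part reached those of Ptprf and Tspan9, which stood at 13.5 to 20.2 and 11.2 to 13.8 CPM in young libraries. Of 12 platelet markers, Itgb3 made up most of the sum (62.0 to 113 CPM in young and 29.5 to 36.1 CPM in old libraries), while Pf4, Ppbp and Gp9 stayed at or under 0.22 CPM and Treml1 was at 0 in all libraries. Itga2b, also on that list, stood at 6.71, 2.96 and 2.60 CPM in young and 2.62, 2.75 and 2.35 CPM in old libraries, with overlapping groups. Of 15 myeloid and dendritic markers the sum was 48.0 to 106 CPM in young and 36.1 to 54.0 CPM in old libraries, and 0 of 7 tested were called in edgeR or DESeq2 (3 with unadjusted p under 0.05 in edgeR). Csf3r, a granulocyte receptor, stood at 28.9, 9.19 and 39.0 CPM in young and 15.7, 10.5 and 5.3 CPM in old libraries (log2 difference -1.29 ± 0.57, SE, n = 3 in both groups). S100a9, a neutrophil protein, stood at 17.1, 7.69 and 20.3 CPM in young and 8.07, 0.86 and 3.28 CPM in old libraries (log2 difference -1.88 ± 0.72, SE, n = 3 in both groups). S100a8, its partner, was lower in all old than in all young libraries. Csf3r, S100a9 and S100a8 had their lowest young value in replicate 2, as did Amigo2. Ptprf and Tspan9 had it in replicate 1 and Actn1 in replicate 3. Of the 7 tested markers, 5 had a negative and 2 a positive log2 difference, the latter Flt3 (0.11) and Mpeg1 (0.06). Mpeg1 had its highest young value in replicate 2. The 8 B-cell markers summed to 15.6 to 43.1 CPM and 18.6 to 32.6 CPM. The 5 natural killer markers summed to 48.0 to 99.8 CPM and 30.5 to 37.9 CPM, nearly all of it Eomes, also a T-cell transcription factor. Eomes stood at 47.6, 98.7 and 99.7 CPM in young and 29.7, 37.1 and 30.8 CPM in old libraries, with a log2 difference of -1.33 ± 0.30 (SE, n = 3 in both groups), uncalled with all libraries in edgeR, called in DESeq2 and called lower without young replicate 1. The other natural killer markers were near 0: Ncr1, Klre1 and Klra8 stayed under 0.5 CPM in each library. Klrb1c stood at 0.29, 0.38 and 0 CPM in young and 0.49, 0.43 and 0.66 CPM in old libraries, so its old values lay above its young ones. Cd8a stayed between 1.44 and 2.37 CPM, and Cd8b1 was lower in all old libraries (9.18 to 12.6 CPM) than in young ones (14.6 to 26.1 CPM). The 11 stromal and endothelial markers summed to 1.61 to 2.89 CPM in young and 1.35 to 2.18 CPM in old libraries, with Ccl19 at 0, and the 5 erythroid ones to 0.93 to 3.76 CPM and 0.43 to 1.09 CPM. The 5 epithelial markers, mostly Epcam, summed to 7.0 to 16.3 CPM in young and 15.1 to 20.0 CPM in old libraries. The 5 thymocyte markers summed to 16.2 to 23.1 CPM and 5.99 to 8.95 CPM, mostly Cd24a, with Rag1 at or under 0.22 CPM. The part of any of these cells in the members' levels was not tested.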

How the data were processed

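The authors deposited a single table of an expected count and an FPKM for each of 66712 RefSeq transcripts and each of 6 libraries, per the file headers. The submitters' processing notes name Bowtie, RSEM and GRCm38, also called mm10. Their versions, the annotation release and the strand setting were not given in the sources used here. Transcript values were summed over 19977 Entrez genes, of which 19830 matched a symbol in RefSeq's GRCm38.p6 table, and counts were rounded. Genes whose FPKM averaged 1 or more were tested in edgeR 4.0.16 (R 4.3.3) by its quasi-likelihood test with TMM factors, no replicate block and a Benjamini-Hochberg adjusted p under 0.05. SE is the log2 difference over the square root of F. Transcripts with a mean of at least 10 counts entered diffSpliceDGE. The tests were checked on simulated counts that had the same spread setting for all genes and libraries. That check does not cover a library that stands apart, as young replicate 1 does. Alternatives used DESeq2 1.42.0, limma 3.58.1, RLE factors, other filters, a replicate block and each library left out. Members and gene lists were chosen with earlier results of these data known. Named genes are the members, their closest relatives, the called and the 3 most abundant genes of each adhesion list, and the 3 closest profiles per member. Marker lists are given by their sums. Ptprj, Tspan3, Tspan13, Cd81, Pdlim4, Itgb1, Itgav, Flna, Rlim, Pced1b and single markers were named after their values were seen. Figures used matplotlib 3.10.9.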

Additional observations from a re-analysis of the deposited data

How the results depend on the processing

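All 4 members kept a negative log2 difference under every alternative in which they were tested. Ptprf and Tspan9 have a mean FPKM under 5, so the stricter filter left them out. Limma on log2(FPKM + 1) gave -0.92 for Ptprf and -1.11 for Tspan9, which understates low genes. Leaving out each library gave -2.03 to -0.76 for Actn1, the latter without young replicate 1. Of 10509 genes, 92 were called with all libraries, 203 of 18288 with no filter, 55 of 8042 at a mean FPKM of at least 5, and 501 in DESeq2. Leaving out each library gave 0 to 929 calls in edgeR: 929 without young replicate 1, 0 without young replicate 2 or old replicate 2 (1296 and 688 with unadjusted p under 0.05), 7 without young replicate 3, 6 without old replicate 1 and 9 without old replicate 3. Genes with changed transcript shares numbered 1 in diffSpliceDGE, 0 in limma's diffSplice (432 with unadjusted p under 0.05), 0 with the replicate block (236) and 1 to 8 without each library, 8 without young replicate 2 and 5 without young replicate 1. The cause of these moves was not tested. Replicate numbers pair the libraries only by number: deviations from the group means had r of 0.223, -0.029 and 0.182 for numbers 1, 2 and 3, and young replicate 2 was closest to old replicate 3. With the replicate block edgeR called 119 genes, and Actn1 had a log2 difference of -1.37. Counts of 52 to 123 behind Ptprf and Tspan9 in old libraries limit their precision.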
